A study of Mus musculus with 6 samples.

Results

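The genes described here encode the Src-family tyrosine kinases Src, Lyn, Fgr, Fyn and Yes1, their inhibitory kinase Csk, and the tyrosine kinases Syk and Btk, which act with them in immune receptor signalling. They were picked out by gene symbol, with earlier results of these data known, and all 8 symbols were found among the 16108 genes of the deposited expression table. RNA was sequenced from RAW264.7 cells, a mouse macrophage-like line that came from a tumour induced by Abelson murine leukaemia virus, so that every library here carries the same transformed background, with its viral Abl kinase. Cells were placed on acoustic devices, left overnight to attach, and then kept for 48 h. The acoustics-on group (3 libraries) received acoustics of 5 kHz at 18 V (peak to peak) during this time, and the acoustics-off group (3 libraries) was cultured without acoustics. A petri-dish group named in the study design was not analysed here. The comparison asks whether the transcripts of these kinases differ with the acoustic treatment.

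Src-family kinases are attached to the inner face of the plasma membrane and phosphorylate receptors and adhesion proteins on tyrosine. Csk phosphorylates a tyrosine in their C-terminal tail, which folds the kinase into a closed, inactive form, and phosphatases such as CD45 (Ptprc) remove that phosphate. In macrophages, Src-family kinases phosphorylate ITAM motifs, paired tyrosines in the tails of adaptors such as Tyrobp and Fcer1g. Syk binds the phosphorylated motifs, and Btk then helps to activate phospholipase C gamma. Src is also a kinase of podosomes, the actin-rich adhesions of macrophages and osteoclasts, and mice without Src have osteopetrosis because their osteoclasts do not resorb bone.

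In GENCODE M21 (GRCm38), Src lies on chromosome 2 from 157418444 to 157471862 (plus strand) and Csk on chromosome 9 from 57626646 to 57653631 (minus strand). Lyn and Fgr are both on chromosome 4, from 3678115 to 3813122 and from 132974095 to 133001910. Fyn is on chromosome 10 from 39368855 to 39565381, and Yes1 on chromosome 5 from 32611171 to 32687057. Syk is on chromosome 13 from 52583173 to 52648792 and Btk on chromosome X from 134542336 to 134583570. Exons of Lyn and Yes1 overlap an opposite-strand gene each (Gm26857 and Gm10461). The sources used here do not say whether counting used strand, so reads within the overlapping stretches may not be told apart.

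Start regions are shown for 3 members whose RNA behaved differently here: Src, the member that rose, Yes1, the member close to 0, and Btk, which was well above 0 in both groups. Each sequence is the 250 bases before the RefSeq start (GRCm38.p6), read 5′ to 3′ on the gene's strand, with capitals marking a GC box (GGGCGG) or the core of the PU.1 site (GAGGAA), on either strand.
Src, chr2:157424043-157424292, plus strand: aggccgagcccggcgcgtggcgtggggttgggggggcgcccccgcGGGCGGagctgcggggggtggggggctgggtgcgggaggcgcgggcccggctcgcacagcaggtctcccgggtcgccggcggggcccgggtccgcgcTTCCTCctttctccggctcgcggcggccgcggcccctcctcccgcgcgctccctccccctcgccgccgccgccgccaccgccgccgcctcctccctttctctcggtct
Yes1, chr5:32610921-32611170, plus strand: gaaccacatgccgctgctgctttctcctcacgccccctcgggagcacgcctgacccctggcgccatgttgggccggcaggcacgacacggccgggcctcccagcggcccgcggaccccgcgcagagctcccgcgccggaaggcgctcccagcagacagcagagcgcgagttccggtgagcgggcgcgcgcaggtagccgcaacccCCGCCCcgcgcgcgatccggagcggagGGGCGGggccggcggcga
Btk, chrX:134583141-134583390, minus strand: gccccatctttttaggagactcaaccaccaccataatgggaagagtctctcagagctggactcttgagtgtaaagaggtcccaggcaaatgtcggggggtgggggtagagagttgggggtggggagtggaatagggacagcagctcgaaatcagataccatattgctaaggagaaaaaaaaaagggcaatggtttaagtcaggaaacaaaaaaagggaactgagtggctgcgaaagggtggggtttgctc

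The Src and Yes1 windows were of one kind, with 82.8% and 77.2% G or C and 40 and 37 CpG dinucleotides. The Btk window had 49.6% G or C and 3 CpG, near the medians of 52.4% and 6 over all 32851 windows of that length in the table. The table held 9 windows for 7 of the 8 members, with no entry used for Lyn. A GC box was found for Src, Yes1 and Fyn, and in 32.7% of all windows. The PU.1 core was found for Src, Syk and Csk, and in 23.3% of all windows. Neither a TATA box (TATAAA, in 12.4% of all windows) nor an AP-1 site (TGANTCA, in 6.75%) was found in the 9 windows. These matches describe letters in the windows, not binding.

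Values are FPKM, reads scaled to transcript length and to library size, as the authors deposited them. The files hold no total counts per library, and relative depths read from the steps of low values lay between 0.96 and 1.07. FPKM times the authors' mean normalised count over mean FPKM gave about 874 to 7144 normalised reads per library for the members other than Yes1, and about 7.84 to 21.03 for Yes1. Macrophage markers were at 20.5 FPKM or more in all libraries, except Mertk, at 2.04 to 6.03 FPKM. The list's summed level (9 of 9 genes found, 0 past the threshold) was 19943 to 26857 FPKM with acoustics on and 28135 to 30358 FPKM with acoustics off. Most of it was Lyz2, at 16356 to 23205 FPKM with acoustics on and 23951 to 26096 FPKM with acoustics off. All acoustics-on libraries were below all acoustics-off libraries for 6 of the 9 genes, and for 2061 of the 11664 genes tested. The list's median log2 difference was -0.36. Csf1r, at -0.85, did pass in the authors' deposited table (adjusted p = 0.0044). The B cell genes Cd79a and Cd79b stayed below 0.14 FPKM. Acoustics-on replicate 1 stood apart on the first principal component, and its differences from the acoustics-off mean ran with transcript length (rank correlation -0.55 across protein-coding genes). The correlation was -0.44 and 0.03 in acoustics-on replicates 2 and 3. In acoustics-off replicates 1, 2 and 3, each set against the other acoustics-off libraries, it was 0.24, -0.31 and 0.05. Values with that trend removed are therefore given where they differ. Acoustics-on replicate 3 stood apart on the second component, at -32.6 against -10.3 to 13.3 in the other libraries. Summed FPKM was 1000722, 824063 and 716509 in acoustics-on replicates 1, 2 and 3, and 821818 to 840707 with acoustics off. Libraries were not scaled to equal sums, so statements on overlap hold for FPKM as deposited or, where said, with the trends removed. The labels do not say whether libraries came from separate cultures, so p-values measure the spread between these libraries, which may be technical.

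Src rose with acoustics on, to about 2.3 times its acoustics-off mean. It was at 14.6, 10.6 and 17.4 FPKM in acoustics-on replicates 1, 2 and 3, against 6.14, 6.98 and 5.61 FPKM in acoustics-off replicates 1, 2 and 3. All 3 acoustics-on libraries lay above all 3 acoustics-off libraries, and the spread was wider with acoustics on. The means were 14.2 ± 3.44 FPKM with acoustics on and 6.24 ± 0.69 FPKM with acoustics off (SD, n = 3 each). On the log2(FPKM + 1) scale, which understates changes of low genes, the difference was 1.05 (SE 0.19, 95% interval 0.59 to 1.51), and its adjusted p of 0.049 (limma, Benjamini-Hochberg over 11664 genes) was just under the threshold of 0.05. Of the 7 members tested, Src was the only one past it, where 2.07% of all genes tested passed in either direction. In bulk RNA, more cells of a kind and more RNA per cell cannot be told apart.

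**Figure D1:**
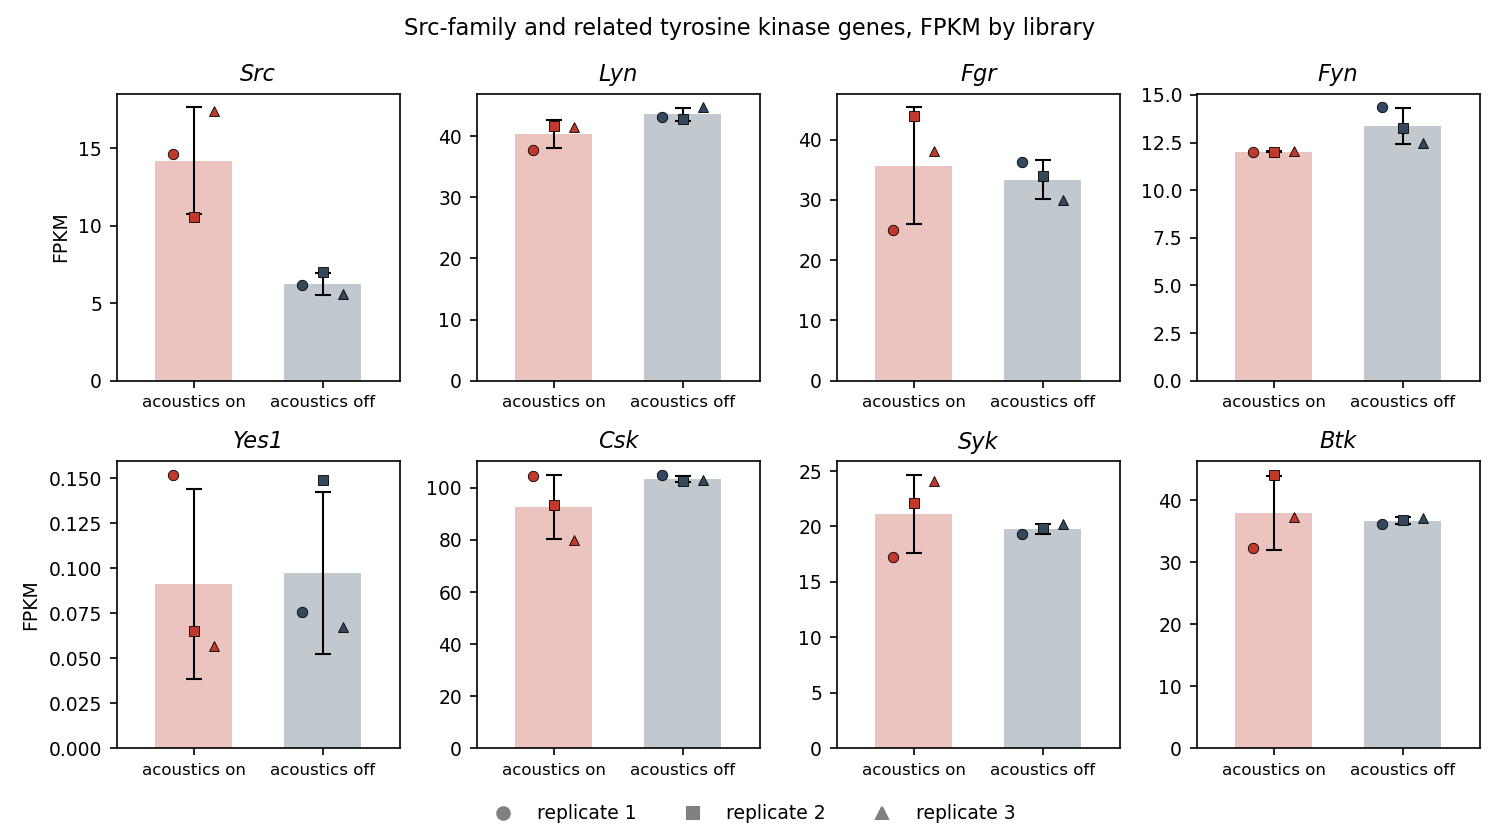
FPKM of the 8 genes (vertical axis, separate scale per gene) in acoustics-on libraries (left) and acoustics-off libraries (right), with points for replicates, bars for means and whiskers for SD. The Src libraries separate, at 10.6 to 17.4 with acoustics on and 5.61 to 6.98 with acoustics off, while Yes1 stays at or below 0.15 FPKM.

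The direction of the Src difference was the same in each of 18 alternative settings, but the call was not. The difference was 0.90 without acoustics-on replicate 3 (adjusted p = 0.10), and 1.04, 1.12 and 0.98 without acoustics-off replicates 1, 2 and 3 (adjusted p = 0.23, 0.18 and 0.25). It was 1.01 without acoustics-on replicate 1 and 1.23 without acoustics-on replicate 2, with adjusted p of 0.036 and 0.023 in limma. With length and GC trends removed, Src was at 15.2, 11.2 and 16.9 FPKM with acoustics on and 5.88, 6.80 and 5.59 FPKM with acoustics off, a difference of 1.11 (limma adjusted p = 0.017). In the authors' deposited table the log2 fold change of Src was 1.19 (SE 0.24, adjusted p = 3.4e-05), and 7.56% of genes passed an adjusted p of 0.05, in either direction, in that table.

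**Figure D2:**
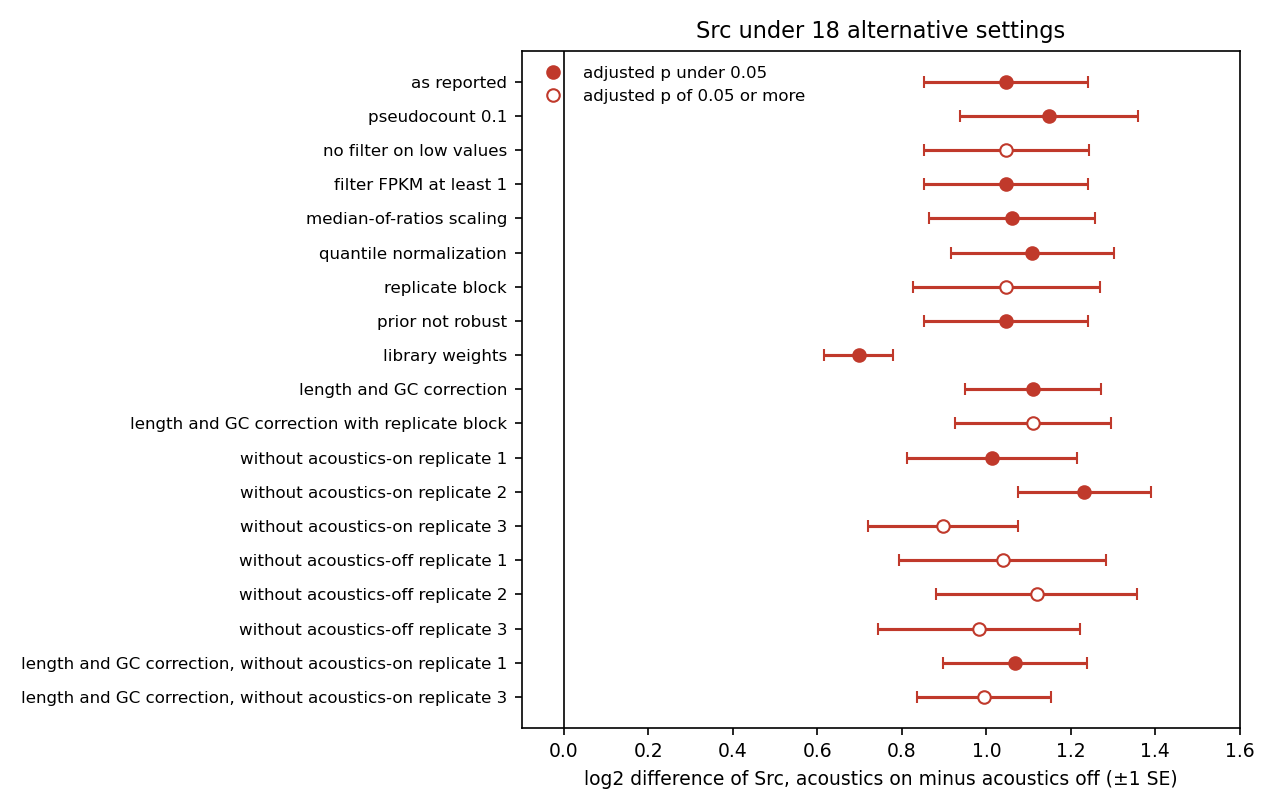
Log2 difference of Src (horizontal axis, acoustics on minus acoustics off, whiskers 1 SE) as reported and under 18 alternative settings (rows). Filled points have an adjusted p under 0.05 and open points do not. All points lie between 0.70 and 1.23, and 8 of the 18 alternatives are open. The filled point at 0.70 is the fit with library weights, which stopped before its tolerance was met.

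The genes with a pattern closest to Src were Cacng8, Angptl2, Igsf3, AA414768 and Plk3, by the root mean square gap between log2 values taken from the acoustics-off mean over the 6 libraries. That gap was 0.11 to 0.13 among 10802 genes whose mean log2(FPKM + 1) reached 1. Each of the 5 was higher in all acoustics-on libraries than in any acoustics-off library. Within the acoustics-on group each was lowest in replicate 2, as Src was. Both traits follow from picking genes by their closeness to Src, so they are not a separate result. AA414768 was nearest to Src in level, at 16.6, 11.4 and 15.6 FPKM with acoustics on and 6.37, 6.57 and 6.40 FPKM with acoustics off.

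Osteoclast genes, the markers of a cell type that RAW264.7 cells can form and that uses Src, are given beside it. Of 12 listed, 10 were found and 8 tested: Acp5, the tartrate-resistant acid phosphatase, and Mmp9, a gelatinase, rose, 0 fell and 6 did not pass, where 1.5% of all genes tested rose. Acp5 averaged 9.70 ± 1.495 FPKM with acoustics on and 4.26 ± 0.46 FPKM with acoustics off (SD, n = 3 each). Mmp9 averaged 12.8 ± 3.93 FPKM with acoustics on and 2.62 ± 0.55 FPKM with acoustics off. The list's summed level was 133.4 to 199.0 FPKM with acoustics on and 104.3 to 118.7 FPKM with acoustics off. Of the 6 that did not pass, Dcstamp, Car2, Ctsk and Atp6v0d2 had log2 differences of 1.36, 0.79, 0.48 and 0.44. The defining receptor gene Tnfrsf11a (RANK) and the transcription factor gene Nfatc1 also did not pass, with log2 differences of -0.54 and -0.45. In the authors' deposited table, where 7.56% of genes passed, Dcstamp (log2 fold change 1.66, adjusted p = 0.0013) and Car2 (0.89, adjusted p = 0.0090) did pass. Ctsk, Atp6v0d2, Tnfrsf11a and Nfatc1 did not pass there. The list's median log2 difference was 0.64, with 6 of 8 tested genes above 0. Calcr and Oscar were not analysed here. Itgb3, the integrin beta 3 chain of osteoclasts, was below the filter, at 0.29 to 0.68 FPKM with acoustics on and 0.05 to 0.10 FPKM with acoustics off. Ocstamp was also below it, at 0.39 to 0.49 FPKM with acoustics on and 0.20 to 0.33 FPKM with acoustics off. The part of these cells in the Src result was not tested.

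Of the other Src-family members, Lyn was highest and did not pass the test. Lyn, which acts in both activating and inhibitory receptor signals, was at 37.7, 41.7 and 41.6 FPKM with acoustics on and 43.2, 42.8 and 44.7 FPKM with acoustics off. Its groups did not overlap, with acoustics on lower, but the gap was small and the log2 difference was -0.11 (SE 0.11, adjusted p = 0.56, limma). Its 95% interval of fold was 0.77 to 1.11, which leaves out a change of the size of Src's. Fyn, a broadly expressed member, was at 12.0, 12.0 and 12.1 FPKM with acoustics on and 14.4, 13.3 and 12.5 FPKM with acoustics off. Its groups also did not overlap, and the log2 difference was -0.14 (SE 0.12, limma adjusted p = 0.49, fold interval 0.75 to 1.10). With the length trend removed, the Fyn groups overlapped, at 11.7 to 13.4 FPKM with acoustics on and 12.1 to 14.1 FPKM with acoustics off. In all, groups did not overlap for 3 of 7 tested members, where this held for 34.8% of all genes tested.

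Fgr, a member largely restricted to myeloid cells, had the widest spread of the tested members within the acoustics-on group, relative to its mean. It was at 25.1, 44.0 and 38.1 FPKM in acoustics-on replicates 1, 2 and 3, against 36.3, 33.9 and 30.0 FPKM with acoustics off. The acoustics-off libraries lay between acoustics-on replicate 1 and the other acoustics-on libraries, and the log2 difference was 0.06 (SE 0.21, limma adjusted p = 0.87, fold interval 0.74 to 1.48). The coefficient of variation was 27.1% with acoustics on and 9.54% with acoustics off, where counting alone gives about 1.58% at the mean normalised count of Fgr in the authors' deposited table. Yes1, a kinase found in many other cell types, was close to 0, at 0.15, 0.06 and 0.06 FPKM with acoustics on and 0.08, 0.15 and 0.07 FPKM with acoustics off. It was below the filter on low values and was not tested, and at about 13.03 normalised reads on average in the authors' deposited table a difference was not detectable at this depth.

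Csk, the kinase that restrains the family, was the most abundant of the 8 transcripts. It was at 104.7, 93.6 and 80.1 FPKM with acoustics on and 104.9, 102.6 and 102.9 FPKM with acoustics off. Acoustics-on replicates 2 and 3 were lower than any acoustics-off library, while replicate 1 was not, and the log2 difference was -0.16 (SE 0.14, limma adjusted p = 0.49, fold interval 0.71 to 1.12). With length and GC trends removed, Csk was at 94.4, 96.8 and 81.4 FPKM with acoustics on and 105.9, 102.8 and 107.4 FPKM with acoustics off, so that the groups no longer overlapped, but it still did not pass (log2 difference -0.22, limma adjusted p = 0.23).

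Syk, which docks on phosphorylated ITAMs, was at 17.2, 22.1 and 24.1 FPKM with acoustics on and 19.3, 19.8 and 20.2 FPKM with acoustics off. Acoustics-on replicate 1 was below and replicates 2 and 3 above the whole acoustics-off group, and the log2 difference was 0.08 (SE 0.15, limma adjusted p = 0.76, fold interval 0.83 to 1.35). Its longest transcript, at 5363 bases, is the longest among the 8 genes. With length and GC trends removed, Syk was at 22.0, 23.2 and 22.2 FPKM with acoustics on and 17.6, 18.7 and 18.9 FPKM with acoustics off. The corrected groups did not overlap, with a log2 difference of 0.27 that did not pass (SE 0.09, limma adjusted p = 0.11). It passed with this correction and acoustics-on replicate 1 left out (0.29, limma adjusted p = 0.047). Btk, a Tec-family kinase, was at 32.2, 44.1 and 37.3 FPKM with acoustics on and 36.2, 36.8 and 37.1 FPKM with acoustics off. The acoustics-off values were nearly equal and lay inside the acoustics-on range, and the log2 difference was 0.03 (SE 0.14, limma adjusted p = 0.90, fold interval 0.81 to 1.29).

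**Figure D3:**
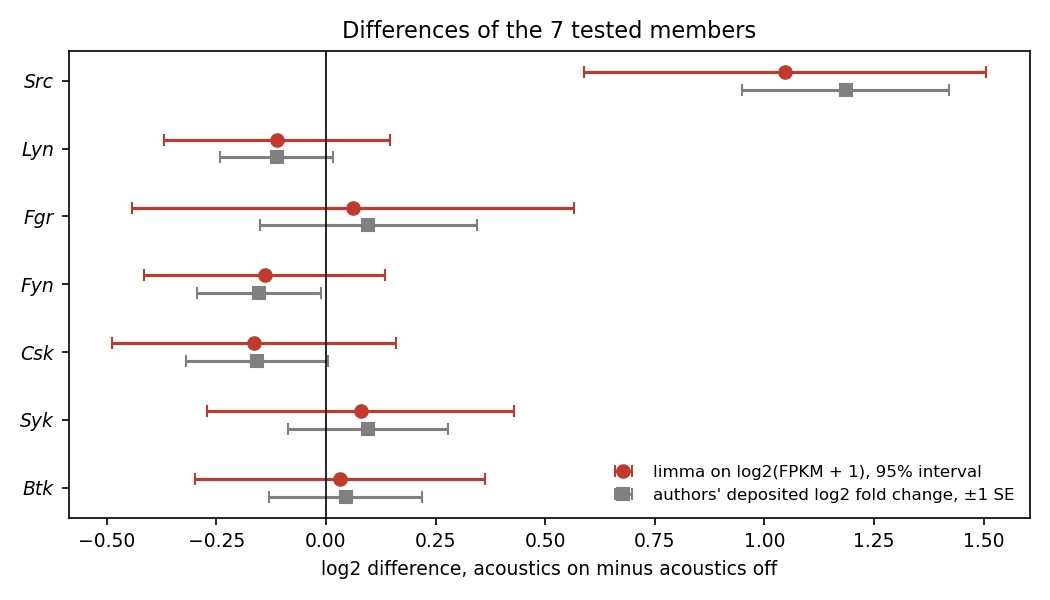
Log2 differences of the 7 tested genes (horizontal axis, acoustics on minus acoustics off): circles are limma estimates with 95% intervals, squares the authors' deposited log2 fold changes with 1 SE. The interval of Src (0.59 to 1.51) lies above 0, and the intervals of the other 6 include 0.

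Within the acoustics-on group, Lyn, Fgr, Fyn, Syk and Btk were each lowest in replicate 1, the library that stood apart on the first principal component. For Fyn the margin was under 0.1 FPKM. Csk was highest there. Src did not follow either order, since its lowest acoustics-on value was in replicate 2. With length and GC trends removed, Fgr, Syk and Btk were still lowest in replicate 1, but Lyn and Fyn were highest there. Lyn was then at 42.21, 39.97 and 39.87 FPKM in acoustics-on replicates 1, 2 and 3, and Fyn at 13.42, 11.7 and 11.75 FPKM. Csk was no longer highest in replicate 1, at 94.4 FPKM against 96.8 FPKM in replicate 2. Src was still lowest in replicate 2.

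The order of levels, which FPKM allows because it is per length, was Csk, Lyn, Btk, Fgr, Syk, Src, Fyn and Yes1 with acoustics on, and Csk, Lyn, Btk, Fgr, Syk, Fyn, Src and Yes1 with acoustics off. The ranges of Lyn, Btk and Fgr all overlapped with acoustics on, and the range of Src overlapped those of Syk and Fyn, which did not overlap each other. With acoustics off, only Btk and Fgr overlapped among neighbours. Src was above Fyn in acoustics-on replicates 1 and 3, by ratios of 1.22 and 1.44, and below it in replicate 2, at 0.88. In the acoustics-off libraries the ratio of Src to Fyn was 0.43, 0.53 and 0.45.

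Summed over Src, Lyn, Fgr, Fyn and Yes1, the level was 89.6, 108.3 and 109.2 FPKM with acoustics on and 100.05, 97.1 and 92.9 FPKM with acoustics off, so that the groups overlapped. Src made up 16.3%, 9.75% and 15.9% of this sum with acoustics on and 6.14%, 7.18% and 6.04% with acoustics off. Lyn made up 38.1% to 42.1% with acoustics on and 43.2% to 48.2% with acoustics off. The ratio of Src to Csk, which does not depend on the scaling of a library, was 0.14, 0.11 and 0.22 with acoustics on and 0.06, 0.07 and 0.05 with acoustics off. Its log2 difference was 1.33, and the two-sided exact permutation p was 0.1, the smallest that 3 against 3 libraries can give. The Src groups were already apart and Csk did not rise, so this p is not separate from the Src result.

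**Figure D4:**
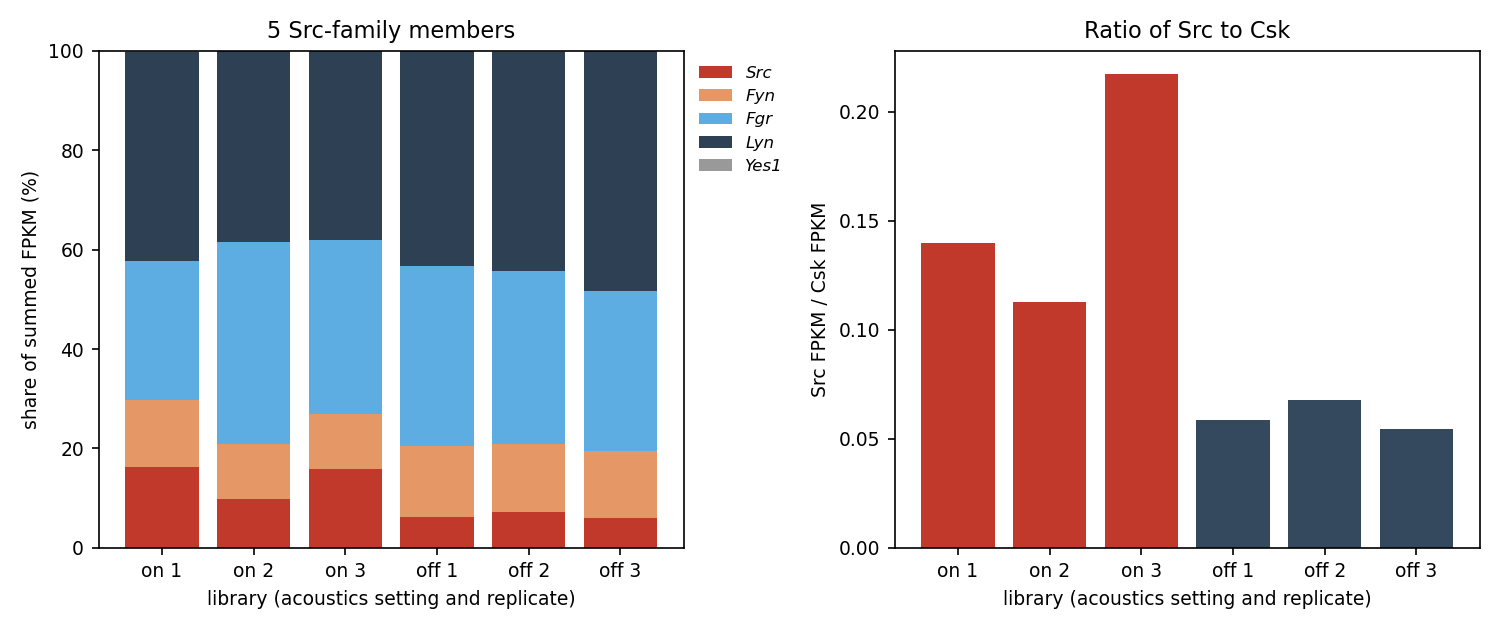
Left: share of each of 5 genes in their summed FPKM (vertical axis, %) in each library. Right: ratio of Src FPKM to Csk FPKM in each library. Acoustics-on libraries are the first 3 bars of each panel, with Src shares of 9.75% to 16.3%, against 6.04% to 7.18% in the acoustics-off libraries.

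Other genes of the pathway were taken from 8 lists with 109 distinct symbols, of which 95 were tested. Of these, 2 passed the test higher with acoustics on and 0 lower, where over all genes tested the shares were 1.5% and 0.574%. Of 11 ITAM adaptors and receptors, Clec5a, a C-type lectin that signals through Tyrobp and Syk, rose, and the list's median log2 difference was 0.11. Clec5a was at 78.0, 73.6 and 99.2 FPKM with acoustics on and 42.6, 41.7 and 43.8 FPKM with acoustics off, groups that lay far apart (log2 difference 0.94, limma adjusted p = 0.027). Of 21 Syk and Btk substrates and adaptors, Lat, an adaptor best known in T cells, was the gene that passed, and the median was -0.20. Lat was at 5.05, 1.59 and 3.88 FPKM with acoustics on and 0.24, 0.09 and 0.31 FPKM with acoustics off (log2 difference 1.81, limma adjusted p = 0.036). Lat met the filter of 0.5 FPKM only through its acoustics-on libraries, so its test is not independent of that filter, and with no filter it did not pass (limma adjusted p = 0.070). Without any 1 acoustics-off library neither Clec5a nor Lat passed (limma adjusted p of 0.15 to 0.17), and without any 1 acoustics-on library Lat was below the filter.

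No member of the other 6 lists passed in limma, while the median over all genes tested was -0.03. Median log2 differences were -0.19 for 22 adhesion and podosome substrates, -0.01 for 20 Csk anchors, phosphatases and other regulators, -0.30 for 9 ITIM receptors, -0.11 for 9 other cytoplasmic tyrosine kinases and 0.36 for the Syk and Tec family relatives. Of those relatives only Tec (0.13) and Txk were tested. Txk met the filter only through its acoustics-on libraries, so their median is not read as a result. At an unadjusted p under 0.05 in limma, 6, 4, 3 and 3 genes of the first 4 of these lists passed, where 19.7% of all genes tested did. The other Src-family kinases that are reported, Lck and Frk, had log2 differences of 0.28 and 0.14. The ITAM adaptors that Syk binds were abundant: Tyrobp averaged 1673 ± 415.6 FPKM with acoustics on and 1918 ± 58.9 FPKM with acoustics off (SD, n = 3 each). Fcer1g averaged 317.6 ± 90.6 FPKM with acoustics on and 308.6 ± 8.70 FPKM with acoustics off. Ptpn6, the phosphatase SHP-1 recruited by ITIM receptors, averaged 205.8 ± 21.6 FPKM with acoustics on and 208.7 ± 1.25 FPKM with acoustics off.

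Of the remaining relatives, Lck, a Src-family kinase of T cells, was at 2.62 to 3.53 FPKM with acoustics on and 2.20 to 2.24 FPKM with acoustics off. Frk was at 0.54 to 0.84 FPKM with acoustics on and 0.42 to 0.65 FPKM with acoustics off. The Tec-family gene Tec was at 18.6 to 28.1 FPKM with acoustics on and 19.7 to 20.4 FPKM with acoustics off. Its relative Txk was at 0.62 to 0.91 FPKM with acoustics on and 0.10 to 0.25 FPKM with acoustics off, and met the filter only through its acoustics-on libraries, so no test is given for it. These and the following genes were picked after their values were seen. Ptk2b, the focal adhesion kinase Pyk2 and a partner of Src in osteoclasts, was at 91.3, 60.3 and 72.5 FPKM with acoustics on and 48.2, 47.4 and 47.7 FPKM with acoustics off, with no overlap between the groups (log2 difference 0.61, limma adjusted p = 0.12). It passed in the authors' deposited table (log2 fold change 0.64, adjusted p = 0.022), where 7.56% of genes did. Abl1 was at 7.28, 14.3 and 14.2 FPKM with acoustics on and 19.5, 20.8 and 22.4 FPKM with acoustics off (limma adjusted p = 0.16), and reads of the viral Abl gene of this line may be counted in it.

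**Figure D5:**
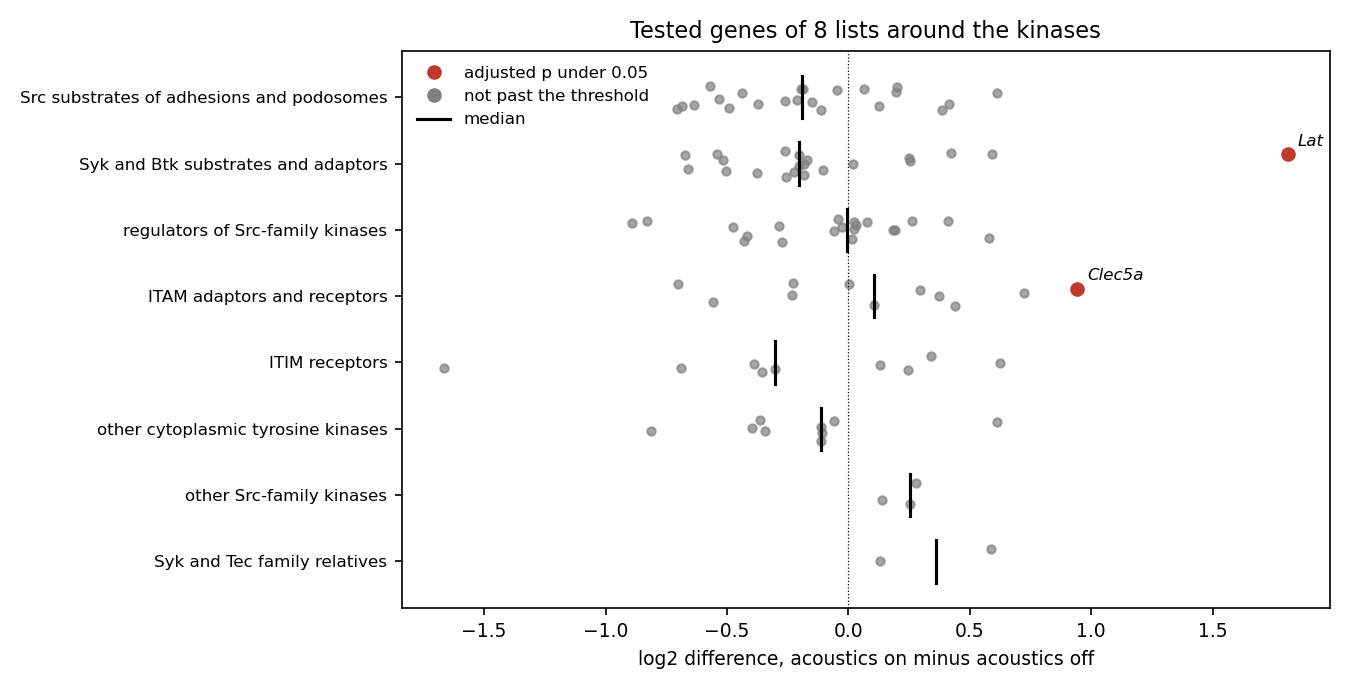
Log2 differences (horizontal axis, acoustics on minus acoustics off) of the tested genes of 8 lists (rows), with points for genes and a bar for each list's median. Clec5a (0.94) and Lat (1.81) are the coloured points past the threshold, and the medians lie between -0.30 and 0.36. The median of 0.36 is that of Tec and Txk. Both Txk and Lat met the filter only through their acoustics-on libraries.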

How the data were processed

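RNA-seq of 3 acoustics-on and 3 acoustics-off libraries was used. Per the labels' protocols, libraries were made after ribosomal RNA depletion, while the labels' molecule field says polyA RNA. The submitters' processing notes name Trim Galore 0.6.8, STAR 2.7.11, Salmon 1.4.0, DESeq2 1.38.2 and GRCm38, with no order or settings. For each library the authors deposited FPKM values. Their deposited comparison table holds a mean normalised count (a signal averaged over libraries), log2 fold changes with standard errors, a Wald score and p-values, with adjusted p missing for 1586 genes and left missing. For the 7 tested members, the log2 ratio of mean FPKM equalled the authors' deposited log2 fold change to within 8.9e-05.

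The 11664 genes that reached 0.5 FPKM in 3 or more libraries were tested with limma 3.58.1 (R 4.3.3) on log2(FPKM + 1), with a trended, robust prior, acoustics on minus acoustics off and Benjamini-Hochberg adjustment over all genes tested; the code was tested on simulated data. Of low values, 57.9% to 67.0% lay within 0.05 of a whole read, so reads were not recovered. Length and GC trends were fitted by loess (span 0.5) on the longest GENCODE M21 transcript of coding genes averaging 1 FPKM or more, and divided out. No value above 0 was shared between libraries. Same-numbered libraries did not deviate together (correlations of -0.07, -0.02 and -0.004).

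Members and lists were chosen with earlier results of these data known, and 1 list gene is not reported here. The rule for named genes took all members, list genes past the threshold, and the 5 genes closest to each member that passed. Other genes named fall outside that rule and were picked from the lists after their values were seen. They include Lck, Frk, Tec, Txk, Tyrobp, Fcer1g, Ptpn6, Ptk2b, Abl1, Itgb3, Tnfrsf11a and Nfatc1. Dcstamp, Car2, Ctsk, Atp6v0d2, Ocstamp, Mertk, Lyz2, Csf1r, Cd33, Lair1, Blnk and Sirpb1a are also among them. Alternatives covered the pseudocount, filter, scaling, prior, weights, replicate term, length and GC correction and each library left out. The correction with acoustics-on replicate 3 left out was added after seeing the data.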

Additional observations from a re-analysis of the deposited data

How the results depend on the processing

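Src was higher with acoustics on in all 18 alternatives, with log2 differences of 0.70 to 1.23, and passed in 10 of them. The 0.70 and 1 of these passes came from library weights, whose fit is not relied on. With pseudocount 0.1, a filter of 1 FPKM, median-of-ratios scaling or a prior not robust, Src passed narrowly (limma adjusted p of 0.045 to 0.049). It did not pass with no filter on low values (1.05, adjusted p = 0.081), with the length and GC correction on all but acoustics-on replicate 3 (0.99, adjusted p = 0.055), or without acoustics-on replicate 3 or any 1 acoustics-off replicate (0.90 to 1.12, limma adjusted p of 0.10 to 0.25). With each library left out in turn it lay between 0.90 and 1.23. The replicate block, although the numbers do not pair the libraries, gave 1.05 (adjusted p = 0.092), and 1.11 (adjusted p = 0.057) together with the correction. No acoustics-on library deviated most like the acoustics-off library of its own number. The Src to Csk log2 difference was 1.06 to 1.54 with a library left out.

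Lyn, Fyn and Csk kept their signs. Btk turned to -0.066 with the correction, with or without the replicate block, and to -0.075 with the correction and without acoustics-on replicate 3. With a library left out, Btk lay between -0.080 and 0.14, below 0 only without acoustics-on replicate 2. Fgr lay between -0.10 and 0.29, below 0 without acoustics-on replicate 2, acoustics-on replicate 3 or acoustics-off replicate 3, and Syk between -0.017 and 0.21, below 0 only without acoustics-on replicate 3. None of these passed. Library weights, whose fit stopped before its tolerance was met, called 6526 genes, Fgr (0.41), Csk (-0.14), Syk (0.15) and Btk (0.25) among them.

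The count of genes past the threshold, 242 as reported (72.3% higher), was 150 with no filter, 667 with the correction (45.3% higher), 1405 and 147 with the correction and without acoustics-on replicates 1 and 3, and 17 to 855 with single libraries left out; with library weights 49.9% were higher. The replicate block gave 179. Of the pathway list genes, 2 as reported, 1 passed with no filter, 1 with the replicate block, 56 with library weights, 4 with the correction, 15 with the correction and without acoustics-on replicate 1, and 0 to 12 with single libraries left out. The cause of these shifts was not tested. Depth limits what can be said of Yes1.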
